A study of Mus musculus with 12 samples.

Results

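Interferon signaling was examined at the level of its receptors and transcription factors in differentiated neurospheres. The genes were the 4 receptor subunits Ifnar1, Ifnar2, Ifngr1 and Ifngr2 and the 5 factors Stat2, Irf1, Irf3, Irf7 and Irf9. They were found by the RefSeq accession of each probe, whatever its value, and had 12 probes among the 55681 probes of the array. They are 9 of the 20887 genes that could be named on it. All 9 genes had a probe that was well above background, and none of their values was missing or saturated.

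Neurospheres are aggregates of neural progenitor cells. They were prepared from the telencephalon of C57BL/6 mouse embryos at day 13, wild-type (WT) or carrying APPswe/PS1dE9, which is a chimeric mouse and human APP transgene together with a mutant human presenilin 1 transgene, both directed to neurons of the central nervous system. After differentiation for 7 days without growth factors, RNA was taken from WT cultures, from untreated APPswe/PS1dE9 cultures (APP_WT), and from APPswe/PS1dE9 cultures given 1 µM bradykinin (BK_APP) or 1 µM of the B2 receptor antagonist HOE-140 (HOE_APP) on days 0, 3 and 6. APP_WT was compared with WT, and BK_APP and HOE_APP were each compared with APP_WT, on 4 2-color arrays per comparison, with the dyes swapped on replicates 3 and 4. WT cultures received neither compound, and a treated WT culture was not analysed here.

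Several facts of the arrays bear on what follows. The labels of both channels of the HOE_APP arrays name the same treatment, so the direction of the HOE_APP values, taken from the first channel, the titles and the swap, is likely only. The 4 APP_WT versus WT arrays lay on one slide and the 8 arrays of treated neurospheres on another, and slide and contrast cannot be told apart, though the ratios themselves come from single arrays. Between arrays of opposite dye orientation the log2 ratios correlated at 0.24 to 0.46 in APP_WT versus WT and at −0.32 to −0.11 in the treated comparisons, and between arrays of the same orientation in the latter at 0.24 to 0.43. Neuronal, astrocyte, oligodendrocyte lineage and progenitor markers were all detected, as the labels imply, and microglial markers were detected as well.

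Type I interferons bind a receptor made of Ifnar1 and Ifnar2, and interferon gamma binds a receptor made of Ifngr1 and Ifngr2. The receptors act through Jak kinases. Type I signaling brings Stat2 and Irf9 into a complex that binds the interferon-stimulated response element (ISRE), and interferon gamma acts through the gamma-activated site (GAS). Irf1 is itself a target of interferon gamma, whereas Irf3 is present in most cells and is activated by phosphorylation, and Irf7 amplifies the production of type I interferon. In the brain microglia are the resident macrophages and respond to interferons, and astrocytes and neurons also carry the receptors.

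The promoters of the 9 genes, taken from RefSeq on GRCm38.p6 as 250 bases before to 50 bases after a transcript start, were searched on both strands for the ISRE core, which is 2 copies of GAAA with any 2 bases between them (or of TTTC, on the other strand), and for the GAS core TTCNNNGAA, which reads the same on both. All 9 genes were in the table, Irf1 and Irf9 with 2 promoters each. The ISRE core was present in 3.44% of all 32851 promoters and the GAS core in 8.3%. The ISRE letters were found for Stat2 only among these genes, and the GAS letters for Irf1, Ifnar1 and Ifnar2. The stretches around the matches are shown for each promoter with a match, with the matching letters in capitals and everything else in lower case. They lie on the plus strand, at chr11:53769884-53769972 for Irf1, chr10:128270248-128270325 for Stat2, chr16:91372533-91372617 for Ifnar2 and chr16:91485170-91485218 for Ifnar1.
Irf1: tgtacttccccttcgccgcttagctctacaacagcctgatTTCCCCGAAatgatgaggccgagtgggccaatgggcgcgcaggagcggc
Stat2: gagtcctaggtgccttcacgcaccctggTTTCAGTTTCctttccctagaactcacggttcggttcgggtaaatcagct
Ifnar2: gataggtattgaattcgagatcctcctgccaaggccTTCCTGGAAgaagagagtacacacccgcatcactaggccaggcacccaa
Ifnar1: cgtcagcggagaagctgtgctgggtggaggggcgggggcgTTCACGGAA

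The first matching letter lies 90 bases before the transcript start for Irf1, 222 for Stat2, 214 for Ifnar2 and 5 for Ifnar1. A match is a description of letters and not a binding site. No match was found within these windows for Ifngr1, Ifngr2, Irf3, Irf7, Irf9 or the second promoter of Irf1. Ifnar1 and Ifnar2 both hold the GAS letters, and in the ratios given next Ifnar2 was called higher in APP_WT and Ifnar1 was not.

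APP_WT neurospheres had higher levels of 7 of the 9 genes than WT neurospheres, and of none a lower level. They were Ifnar2, Ifngr1 and Ifngr2 among the 4 receptors and Stat2, Irf1, Irf7 and Irf9 among the 5 factors. Ifnar1 and Irf3 were not called. A gene was called at an adjusted p below 0.05 in limma, with p-values adjusted by Benjamini-Hochberg over 29320 expressed probes. Of those probes 11.6% were called higher and 7.01% lower. At an unadjusted p below 0.05 the count was also 7 of the 9 genes, against 31.8% of the probes in either direction. The 7 genes were also those with a log2 ratio above 0 on all 4 arrays, as 15.1% of the probes measured on all of them had. SAM together with rank products, the tests of the study's methods, called the same 7 genes and 12.1% of the probes. The median log2 fold change was 0.36 for the 4 receptors and 0.46 for the 5 factors, against 0.00 over all expressed probes. The genes were chosen with earlier results of these data known, so that the counts and medians describe them and have no test. In bulk samples such as these, more cells of a type and more RNA per cell cannot be told apart.

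**Figure D1:**
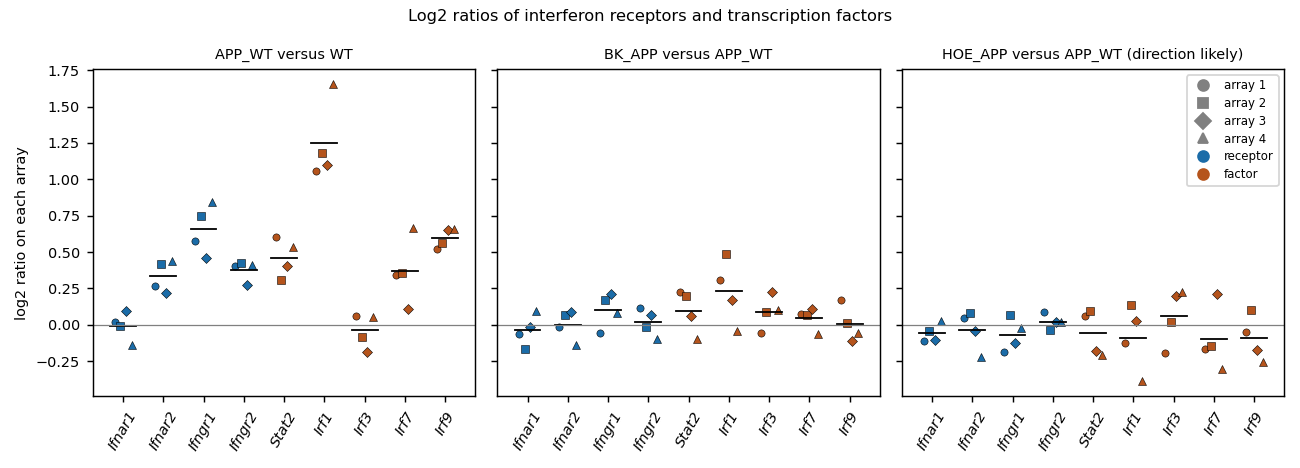
Log2 ratio of each gene on each array (y axis) for the 4 receptors (blue) and the 5 factors (brown) on the x axis, in the 3 comparisons; symbols mark the 4 arrays and the black line their mean. In APP_WT versus WT the 4 arrays of Irf1 lie between 1.06 and 1.65 and those of Irf3 and Ifnar1 lie around 0, while in the treated comparisons the arrays of the genes other than Irf7 and Irf1 lie between −0.25 and 0.23.

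Among the receptors Ifngr1, the ligand-binding chain of the interferon gamma receptor, had the largest ratio. Its log2 intensity was 9.97, 9.70, 9.82 and 9.69 in WT and 10.55, 10.45, 10.28 and 10.53 in APP_WT on arrays 1 to 4, so the conditions did not overlap. The log2 ratios of 0.58, 0.75, 0.46 and 0.85 gave a log2 fold change of 0.66 with an SE of 0.07, or 1.58-fold (limma, adjusted p = 0.000152).

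Ifngr2, the signaling chain of the same receptor, had log2 ratios of 0.40, 0.43, 0.27 and 0.41. All were above 0, the third stood apart from the others, and the log2 intensities of 10.85 to 11.09 in WT and 11.16 to 11.50 in APP_WT did not overlap. The log2 fold change was 0.38 with an SE of 0.05, or 1.30-fold (limma, adjusted p = 0.000525). On each of the 4 arrays the ratio of Ifngr1 exceeded that of Ifngr2, by 0.28 ± 0.12 on the log2 scale (SD, n = 4).

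Ifnar2, the chain of the type I receptor with high affinity for the ligand, had log2 ratios of 0.27, 0.42, 0.22 and 0.44. Its log2 intensities were 9.59 to 9.69 in WT and 9.85 to 10.11 in APP_WT and did not overlap. The log2 fold change was 0.34 with an SE of 0.06, or 1.26-fold (limma, adjusted p = 0.00299). Median centering instead of loess ended this call, with a log2 fold change of 0.22 and an adjusted p of 0.0741 in limma.

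Ifnar1, the other chain of the type I receptor, had log2 ratios of 0.02, −0.01, 0.09 and −0.14. The arrays fell on both sides of 0, and the log2 fold change was −0.01 with a 95% interval from −0.13 to 0.11 (limma, adjusted p = 0.927). Ifnar1 was measured by 3 expressed probes, and the other two had log2 fold changes of −0.11 and −0.17 (limma, adjusted p = 0.154 and 0.145). None of its probes was called, and none had a log2 fold change above 0. On each array the ratio of Ifnar2 exceeded that of Ifnar1, by 0.35 ± 0.20 on the log2 scale (SD, n = 4).

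Ifnar2, Il10rb, Ifnar1 and Ifngr2 follow each other on chromosome 16 with no other protein-coding gene between them in the RefSeq annotation. Il10rb, a chain shared by the receptors of interleukin 10 and of type III interferons, was not well above background on any array in WT and was so on 3 arrays in APP_WT. It was 1.40-fold higher in APP_WT, from a log2 fold change of 0.49 with an SE of 0.06 (limma, adjusted p = 0.000343). Its own WT signal was above the lowest signal well above background, so that the bound set for dim probes equals the measured fold. Of these 4 neighbors 3 were thus called higher, and Ifnar1, between 2 of them, was not.

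**Figure D2:**
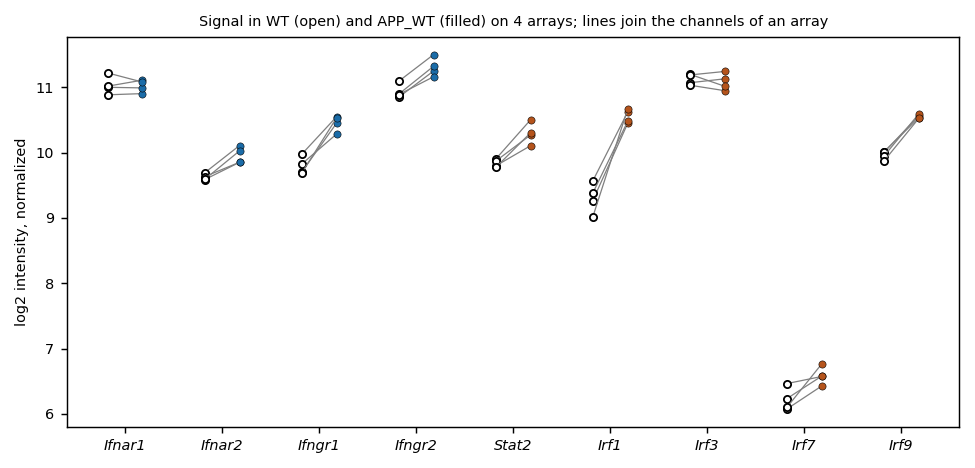
Normalized log2 intensity (y axis) of the 9 genes (x axis) in WT (open circles) and APP_WT (filled circles, blue for receptors and brown for factors) on the 4 arrays of this comparison, with a line joining the channels of an array; heights of different genes come from different probes and are not comparable. For 6 genes all APP_WT circles lie above all WT circles, and for Irf7, Ifnar1 and Irf3 they overlap.

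The levels of APP_WT and WT did not overlap for 6 of the 9 genes, Ifnar2, Ifngr1, Ifngr2, Stat2, Irf1 and Irf9, with APP_WT higher in each case. This was so for 6.73% of the expressed probes measured on all 4 arrays, and for 4.09% with APP_WT lower.

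Irf1, a factor that is induced by interferon gamma and binds ISRE-like sequences, had the largest ratio of the 9 genes. Its log2 intensity was 9.57, 9.27, 9.38 and 9.01 in WT and 10.62, 10.45, 10.48 and 10.67 in APP_WT. The log2 ratios of 1.06, 1.18, 1.10 and 1.65 were all above those of any other member on the same array. The log2 fold change was 1.25 with an SE of 0.10, or 2.37-fold (limma, adjusted p = 9.68e-06). A second Irf1 probe, for another transcript of the gene, was not well above background on any of the 12 arrays. With both Irf1 probes averaged, the log2 fold change was 0.62 and was still called (limma, adjusted p = 4.89e-05).

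Irf9, the DNA-binding part of the complex formed with Stat2, had log2 ratios of 0.52, 0.56, 0.65 and 0.66. They had an SD of 0.07 and were all clear of 0. Its log2 intensity was 9.87 to 10.01 in WT and 10.53 to 10.59 in APP_WT. The log2 fold change was 0.60 with an SE of 0.05, or 1.51-fold (limma, adjusted p = 1.59e-05).

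Stat2, the partner of Irf9, had log2 ratios of 0.60, 0.31, 0.40 and 0.53. Its log2 intensity was 9.77 to 9.90 in WT and 10.11 to 10.50 in APP_WT, without overlap. The log2 fold change was 0.46 with an SE of 0.06, or 1.38-fold (limma, adjusted p = 0.00028).

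Irf7, which drives the expression of type I interferon genes, had a dim probe. It was not well above background on any array in WT and was so on 2 of 4 arrays in APP_WT. The log2 ratios were 0.35, 0.35, 0.11 and 0.67, and the levels of the conditions overlapped. Irf7 was at least 1.24-fold higher in APP_WT, from a log2 fold change of 0.37 with an SE of 0.09 (limma, adjusted p = 0.0199). This call rested on single arrays. The adjusted p in limma was 0.0508 without array 1, 0.0656 without array 2 and 0.134 without array 4, and it was 0.0764 without a dye term.

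Irf3, the factor that acts upstream of interferon production, had log2 ratios of 0.06, −0.08, −0.18 and 0.05. They fell on both sides of 0, with a log2 fold change of −0.04 and a 95% interval from −0.17 to 0.09 (limma, adjusted p = 0.710). Irf1 exceeded Irf3 by 1.29 ± 0.25 and Irf9 exceeded Irf3 by 0.64 ± 0.15 on the log2 scale (SD, n = 4), on each of the arrays. The differences between pairs of genes on the same array were chosen after the values were seen and were not tested.

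The other genes of the pathway were taken from a list of receptors, kinases, STATs, IRFs, inhibitors and ligands. Of 40 genes 30 were expressed, and of these 13 were called higher, 3 were called lower and 14 were not called. Over all expressed probes 11.6% were called higher and 7.01% lower, so the count called lower is near that share. Their median log2 fold change was 0.07. Among the kinases, Jak1 (0.03) and Tyk2 (0.06) were not called, with adjusted p = 0.783 and 0.482 in limma. Jak2, the kinase bound to Ifngr2, fell by 0.21 on the log2 scale with an SE of 0.05 (limma, adjusted p = 0.0142). Jak3 was called higher, with a log2 fold change of 0.29 and an SE of 0.07 (limma, adjusted p = 0.0110).

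Among the other IRFs, Irf8, a factor of myeloid cells, rose by a log2 fold change of 0.94 with an SE of 0.06 (limma, adjusted p = 3.70e-06). Irf5, which also acts in myeloid cells, was not well above background on any array in WT. It was 1.41-fold higher in APP_WT, from a log2 fold change of 0.50 (limma, adjusted p = 0.000911), and here too the bound equals the measured fold. Irf2 was called higher as well. Of the other STATs, Stat3 and Stat5a were called higher and Stat5b was not.

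Among the inhibitors, Usp18, an inhibitor that binds Ifnar2, rose by a log2 fold change of 1.44 with an SE of 0.14 (limma, adjusted p = 4.75e-05). Socs1, which blocks Jak kinases, rose by 0.28 on the log2 scale with an SE of 0.05 (limma, adjusted p = 0.00210). Socs3, Ptpn2 and Ptpn6 were also called higher, whereas Socs2 and Cish were called lower. Of the ligands, Ifng was called higher with a log2 fold change of 0.36 (limma, adjusted p = 0.0104), but its probe was well above background on 2 of 4 arrays in each condition. Ifna1 and Ifnk were not called.

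**Figure D3:**
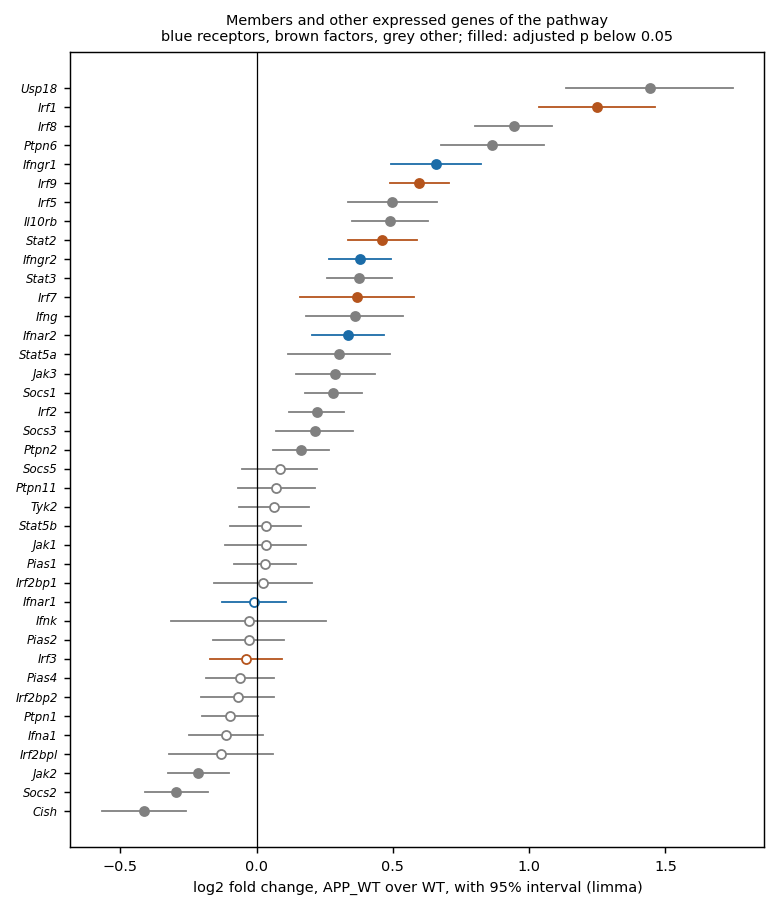
Log2 fold change of APP_WT over WT (x axis, dots) with its 95% interval from limma (lines) for the 9 genes and the 30 other expressed genes of the pathway (y axis, in order of the value); filled dots have an adjusted p below 0.05. Usp18 at 1.44 and Irf1 at 1.25 lead the order, Ifnar1 and Irf3 lie near 0 with Jak1 and Tyk2, and Cish at −0.41 is lowest.

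The interferon-induced genes that such receptors and factors control were given a list of 35, of which 32 had a named probe on the array and 30 were expressed. All 30 were called higher, against 11.6% of all expressed probes, and their median log2 fold change was 1.50. Ifit1, Rsad2, Oas1a, Oas2, Parp14 and Tap1 were not well above background on any array in WT. A gene counted as expressed through either condition, so these could enter the list without signal in WT. The largest were Cxcl10, a chemokine, at 4.50, Rtp4 at 3.12 and Oasl2 at 3.05. Among the 9 receptors and factors none but Irf1 exceeded 0.66.

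Cell type markers moved in the same comparison, in which 11.6% of all expressed probes were called higher and 7.01% lower. Of 14 expressed markers of microglia and macrophages 13 were called higher, the median log2 fold change was 1.49, and their summed intensity was 14350 to 18402 in APP_WT and 9945 to 12088 in WT. Itgam was not called, with a log2 fold change of 0.11 and a dye coefficient of 0.22 (limma, adjusted p = 0.427). Its probe was the brightest of these markers (mean log2 intensity 12.92), so the sums rest largely on it. P2ry12, Cd68 and Spi1 were also listed and had no expressed probe. In WT, Adgre1 was not well above background on any array. Tmem119, Trem2, Tyrobp, C1qa and Ptprc were so on 1 array in WT, and Cx3cr1 and Fcrls on 2. Of 6 astrocyte markers 5 were called higher, with a median of 0.34. Of 5 markers of pericytes and fibroblasts 3 were called lower, Pdgfrb, Lum and Dcn, with a median of −0.25. Of 8 neuronal markers Gad1 and Gad2 were called higher and Map2 and Dcx lower, with a median of 0.02. For Gad2 and Dcn the dye coefficient (0.36 and −0.35) exceeded the log2 fold change (0.30 and −0.25) in size. Of 5 progenitor markers Nes and Vim were called higher and Pax6 and Hes5 lower, with a median of −0.12. Of 7 markers of the oligodendrocyte lineage 1 was called, Olig2, which was lower, and neither of the 2 expressed endothelial markers was called. The 3 markers of peripheral myeloid cells on the array were not expressed. The part of these cells in the ratios of the receptors and factors was not tested.

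With BK, none of the 9 genes was called, and 0% of the expressed probes were (the smallest adjusted p over all probes was 0.967 in limma). The median log2 fold change was 0.01 for the receptors and 0.09 for the factors. An unadjusted p below 0.05 was reached by 1 of the 9 genes, Irf1, against 4.45% of the expressed probes. None of the 9 genes had levels that did not overlap between BK_APP and APP_WT (0.564% of the probes with BK_APP higher and 0.234% lower), and none had the same sign on all 4 arrays (5.1% above 0 and 4.62% below).

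Irf1 had log2 ratios of 0.31, 0.48, 0.17 and −0.04 in BK_APP versus APP_WT. The first 3 arrays were above 0 and the fourth was not, and the log2 intensities of 10.61 to 10.86 in BK_APP and 10.37 to 10.66 in APP_WT overlapped. The arrays with BK_APP in Cy5 had the higher ratios (0.31 and 0.48), and the dye coefficient was 0.166. The log2 fold change was 0.23 with an SE of 0.10 and a 95% interval from 0.02 to 0.44 (limma, unadjusted p = 0.0365, adjusted p = 0.967). It was called by SAM together with rank products at unadjusted thresholds, as were 1.83% of the expressed probes. The microglial markers had a median log2 fold change of 0.16 with BK, and the part of these cells was not tested.

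The other factors lay closer to 0 with BK. Stat2 had log2 ratios of 0.23, 0.20, 0.06 and −0.10, with the fourth array below 0 and a log2 fold change of 0.10 with an SE of 0.06. Irf3 (0.09), Irf7 (0.05) and Irf9 (0.00) had 95% intervals that held 0. For Irf9 the interval ran from −0.11 to 0.11.

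Among the receptors with BK, Ifngr1 had log2 ratios of −0.06, 0.17, 0.21 and 0.08 and a log2 fold change of 0.10, with a 95% interval from −0.06 to 0.27. Ifngr2 (0.02), Ifnar2 (0.00) and Ifnar1 (−0.04) had arrays on both sides of 0. The 95% intervals of these 3 receptors all lay between −0.15 and 0.14.

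With HOE-140, whose direction is likely only, none of the 9 genes was called either, and 0% of the expressed probes were (smallest adjusted p 0.896 in limma). No gene had an unadjusted p below 0.05, against 5.03% of the expressed probes, and none was called by SAM together with rank products, against 2.32%. None had levels that did not overlap (0.605% of the probes with HOE_APP higher and 0.345% lower) or the same sign on all 4 arrays (5.69% above 0 and 5% below). The median log2 fold change was −0.05 for the receptors and −0.09 for the factors. If the labels of the second channel alone were followed, every sign of HOE_APP versus APP_WT would turn.

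Irf9 had log2 ratios of −0.05, 0.10, −0.17 and −0.25 with HOE-140. The second array was above 0, and the log2 fold change was −0.09 with an SE of 0.05 (limma, unadjusted p = 0.0866, adjusted p = 0.923). Irf1 had log2 ratios of −0.13, 0.14, 0.02 and −0.39, which fell on both sides of 0, and a log2 fold change of −0.09 with a 95% interval from −0.30 to 0.13. Irf7 (−0.10) and Stat2 (−0.06) likewise had arrays on both sides of 0. Stat2 was above 0 on the arrays with HOE_APP in Cy5 and below 0 on those with the dyes swapped, with a dye coefficient of 0.14, which is larger in size than its log2 fold change.

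Irf3 had log2 ratios of −0.19, 0.02, 0.20 and 0.23 with HOE-140 and a log2 fold change of 0.06. Its dye coefficient of −0.15 also exceeded the log2 fold change in size. The log2 fold changes of the receptors lay between −0.07 for Ifngr1 and 0.02 for Ifngr2, and their 95% intervals all held 0. With HOE-140 the dye coefficient was also the larger in size for Irf9 (0.118), Irf1 (0.0945) and Ifnar2 (0.0976). With BK it was so for Stat2 (0.116), Irf9, Ifnar1, Ifnar2 and Ifngr2.

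**Figure D4:**
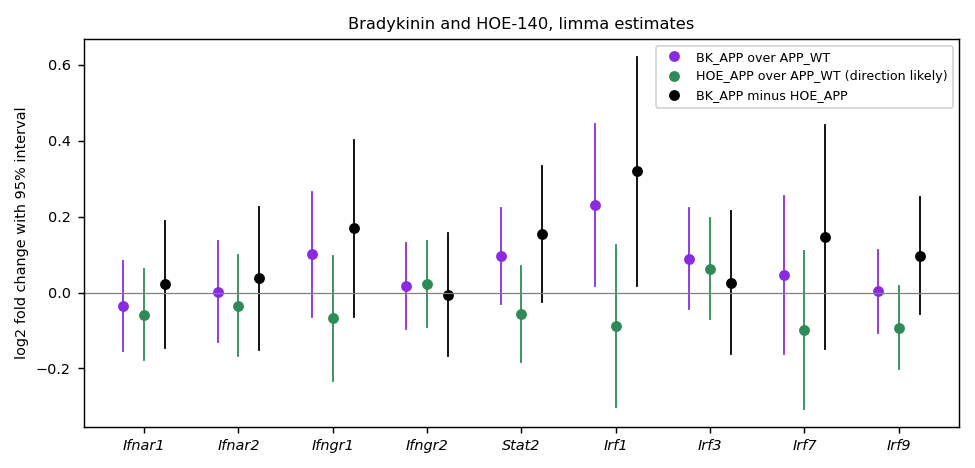
Log2 fold change (y axis, dots) with its 95% interval from limma (lines) for each gene (x axis) in BK_APP over APP_WT (violet), HOE_APP over APP_WT (green, direction likely only) and the difference BK_APP minus HOE_APP (black). Before adjustment Irf1 has an interval above 0 with BK, and one in the difference only if the likely direction of HOE_APP holds, and the intervals of the other 8 genes hold 0.

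BK and HOE-140, an agonist and an antagonist of the B2 receptor, were given at the same dose and times, so their log2 fold changes could be set against each other. The difference rests on the direction of the HOE_APP arrays, which is likely only. In 1 contrast over 1 pair of compounds none of the 9 genes differed at an adjusted p below 0.05, nor did any expressed probe (0%), and 2.49% of the probes had an unadjusted p below 0.05. The difference was 0.32 for Irf1, with an SE of 0.14 and a 95% interval from 0.02 to 0.62 (limma, unadjusted p = 0.0401, adjusted p = 1.00). With the HOE_APP arrays read in the other direction it was 0.14 for Irf1, with an SE of 0.14 and a 95% interval from −0.16 to 0.44 (limma, unadjusted p = 0.319, adjusted p = 0.786), so the value depends on that reading. In the likely direction the difference was 0.17 for Ifngr1, 0.15 for Stat2, 0.15 for Irf7 and 0.10 for Irf9, with intervals that held 0. In the other direction it was 0.03 for Ifngr1 and 0.04 for Stat2. The median difference was 0.03 for the receptors and 0.15 for the factors in the likely direction, and 0.00 and 0.04 in the other. Between arrays of the same number, in the likely direction, BK_APP minus HOE_APP was 0.44, 0.35, 0.15 and 0.34 for Irf1, 0.17, 0.10, 0.24 and 0.11 for Stat2, and 0.13, 0.10, 0.34 and 0.10 for Ifngr1. All 4 differences were above 0 for these genes and for none of the other 6. The labels do not state that the numbers pair samples. The share of all expressed probes with such a run of signs was not determined, so the count is a description only. For Ifngr2 the interval ran from −0.17 to 0.16 and for Irf3 from −0.16 to 0.21, and a p that misses the threshold does not show that the compounds act alike.

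The 3 comparisons share APP_WT as a condition, which enters as the numerator in the first and as the denominator in the others. For that reason only each comparison's own values are set side by side. Irf1 had log2 fold changes of 1.25 in APP_WT versus WT, 0.23 with BK and −0.09 with HOE-140. Ifngr1 had 0.66, 0.10 and −0.07, Stat2 had 0.46, 0.10 and −0.06, and Irf9 had 0.60, 0.00 and −0.09. The 30 interferon-induced genes had medians of 1.50, 0.13 and −0.22. In the treated comparisons limma called none of them after adjustment. At an unadjusted p below 0.05 there were 5 with BK and 19 with HOE-140, against the shares of all probes given above, and SAM together with rank products called 8 and 18 of them. The values with HOE-140 would have the opposite sign if its direction were the other. In BK_APP versus APP_WT their median was 0.27, 0.14, 0.23 and −0.10 on arrays 1 to 4, so the fourth array was below 0 for them and for Irf1.

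The genes whose log2 ratios over the 12 arrays were most like those of each member are given as a description, with Pearson's r and no test. The HOE_APP arrays entered in their likely direction. For the called members APP_WT versus WT holds the largest ratios and sets most of r. This was not so for Irf3 and Ifnar1. Irf3 had an SD over arrays of 0.12 in APP_WT versus WT and 0.19 with HOE-140. Ifnar1 had 0.10 in APP_WT versus WT and 0.11 with BK. For Irf1 they were Cdkn2b, B2m and Bst2 (r = 0.99 for each), and for Irf9 Clu, Xaf1 and Irgm2 (0.98 for each). For Ifngr1 they were Vcam1 (0.97), Ms4a6d (0.97) and Cd14 (0.96), for Ifngr2 A2m, Slc41a1 and Acsbg1, and for Ifnar2 Tmem176a, Pqlc3 and H2-Ab1. For Stat2 they were Adamtsl4, Hacd4 and Cpq, and for Irf7 Gstt1, Higd2a and Lyz2. The genes that were not called had other neighbors, Snx6, Fmc1 and Znhit1 for Irf3 and Gm10845, Cplane1 and Tdgf1 for Ifnar1, with r between 0.91 and 0.96.

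**Figure D5:**
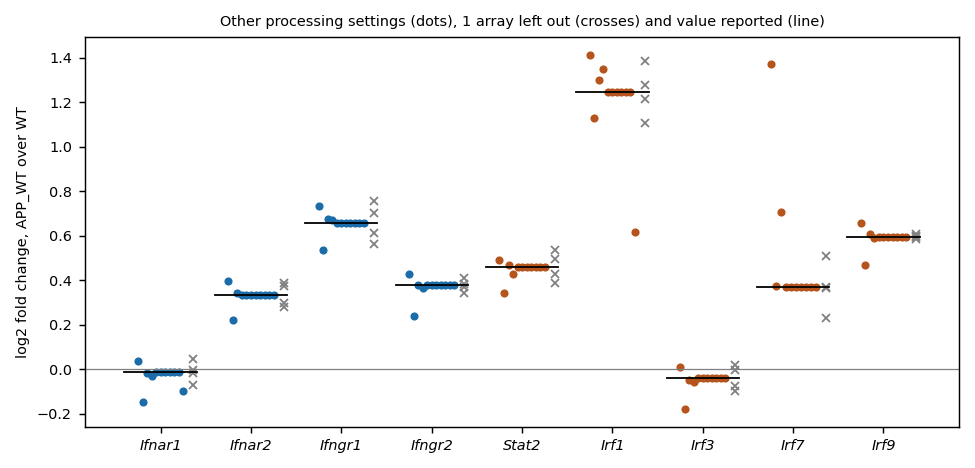
Log2 fold change of APP_WT over WT (y axis) for each gene (x axis) as reported (black line), under other ways of processing (dots) and with 1 array left out (gray crosses). Irf9 and Ifngr1 stay well above 0 throughout, Irf1 ranges from 0.62 with both of its probes averaged to 1.41, and Irf7 ranges from 0.23 without array 4 to 1.37 with the signals processed by the scanner software.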

How the data were processed

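RNA (100 ng) of WT, APP_WT, BK_APP and HOE_APP neurospheres was labeled in Cy3 or Cy5 for 12 Agilent SurePrint G3 mouse arrays. The authors deposited the spot intensities and backgrounds of both channels from Feature Extraction 11.0.1.1 without normalization, and processed intensities that the software had background-subtracted and dye-normalized. The authors also deposited log2 ratios, whose normalization is not given in the sources used here. On each array they correlated at 0.9986 to 0.999997 with the log ratio of the scanner software, so they are not a separate way of processing. Each replicate is, per the methods, an independent biological replicate, and each array holds 1 replicate of both conditions.

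Median signals were corrected by normexp (offset 50) and normalized by loess (span 0.3) in limma 3.58.1 (R 4.3.3, data.table version 1.17.8). Control spots (3671 of 62976) and uneven spots were left out. Ratios were turned to APP_WT over WT or treated over untreated. Expressed probes (29320) were well above background for 1 condition on at least 3 of 4 arrays of a comparison, and 27509 of 29150 probes with a RefSeq accession were named. The probe of highest mean intensity stood for a gene. Levels are log2 intensities per channel after Aquantile scaling. A bound sets the mean of the brighter condition against the higher, per array, of the lowest signal well above background and the dim probe's own signal. It takes no account of the spread between arrays. It is open to dye bias only as far as swaps do not balance it.

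One limma model over the 12 arrays had a mean and a dye coefficient per comparison (6 residual and 4.56 prior degrees of freedom). Tests were two-sided, with Benjamini-Hochberg adjustment over all expressed probes. SAM with 16 sign patterns and rank products with 100 draws, the methods' tests, were programmed anew. The pipeline was tested on simulated data. The text names all 9 members, Jak1, Jak2, Jak3, Tyk2, Irf5, Irf8, Socs1, Usp18 and Il10rb, the 3 induced genes with the largest change, and 3 genes most like each member. Some genes of the pathway list are not reported here. Other pathway genes are named as called or not, and cell type markers as called or not. Members and lists were chosen with earlier results of these data known. The number of arrays limits the precision.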

Additional observations from a re-analysis of the deposited data

Results flagged for a closer look

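Ifngr2 in APP_WT versus WT had 1 array far from the others, array 3, with a log2 ratio of 0.27 against 0.40 to 0.43 on the other arrays. The gap passed the 95% limit of Dixon's test. Of 33 groups of 4 arrays examined this was the only one so marked, and chance marks about 1 in 20.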

How the results depend on the processing

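Of the values compared across settings, none turned its sign where it was called under either, and 54 of 581 changed sign where it was called under neither. The count of genes called in APP_WT versus WT was 6 to 7 of 9 with 1 array left out, and 0 in the treated comparisons and in BK_APP minus HOE_APP. With SAM and rank products, which were not run for BK_APP minus HOE_APP, the count for BK_APP was 1, Irf1 (log2 fold change 0.23). The median of the factors in APP_WT versus WT moved to 0.66 with the processed signals and to 0.61 with an offset of 10. With median centering the median of the receptors was 0.23 in APP_WT versus WT, 0.0775 with BK and 0.0672 with HOE-140, a sign change for the last, while the median of all expressed probes was −0.07, 0.04 and 0.08. When HOE_APP was read in the other direction, the medians were 0.0463 for receptors and 0.0882 for factors. Ifnar2 lost its call with median centering, and Irf7 without a dye term and without array 1, 2 or 4, as given above. Irf7 had no value in the deposited ratios used here.

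The labels give the comparisons the same replicate numbers without stating that the numbers pair samples. The residuals of same-numbered arrays correlated at 0.42 and 0.43 between BK_APP and HOE_APP, and at −0.51 to −0.21 between these and APP_WT versus WT, in which APP_WT lies in the numerator. Whether same-numbered arrays share an APP_WT sample was not tested, and the BK_APP and HOE_APP arrays also lay on the same slide. With the replicate number as a block, Irf7 lost its call (adjusted p = 0.0542 in limma). With the sign of APP_WT versus WT turned in the block, an alternative chosen after seeing the data, it kept it (adjusted p = 0.000974), the same 7 genes were called, and 8270 probes were called in APP_WT versus WT against 5447 without a block. In that fit Irf1 had an adjusted p of 0.329 with BK and of 0.735 in BK_APP minus HOE_APP (unadjusted p = 0.00346 and 0.00396). Signal over background limits Irf7, Irf5, Il10rb and Ifng.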
